A study of Mus musculus with 67 samples.

Results

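The antigens that major histocompatibility complex (MHC) class I molecules show at the cell surface pass through a short chain of gene products, and 10 of these genes were followed here in 3 inbred mouse strains: the light chain B2m, the heavy chains H2-K1, H2-D1, H2-Q7 and H2-Q10, the peptide transporter subunits Tap1 and Tap2, tapasin (Tapbp), and the immunoproteasome subunits Psmb8 and Psmb9. Their probe sets were those that the array platform's probe-to-gene table assigns to 1 of these symbols alone. This gave 12 of 38385 probe sets, with 2 each for H2-K1 and Tapbp and 1 for each other gene. A further 2 probe sets list a member together with other genes and were left out. No filter on low values was applied, so all 12 were tested.

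Class I molecules present peptides from inside the cell to CD8+ T cells. Proteasomes cut proteins into peptides, the transporter formed by Tap1 and Tap2 moves them into the endoplasmic reticulum, and tapasin holds the empty heavy chain and its light chain, beta-2 microglobulin, beside the transporter until a peptide is bound. Interferon gamma raises most of these genes, partly through the transactivator Nlrc5, and replaces catalytic subunits of the proteasome by Psmb8 and Psmb9. In liver, blood vessels, heart and kidney, class I is carried by most cell types, at high levels on endothelium and on resident macrophages, while the soluble class I protein encoded by H2-Q10 is known chiefly as a product of hepatocytes.

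The strains were BPH/2J (BPH, high blood pressure), BPN/3J (BPN, normal pressure) and BPL/1J (BPL, low pressure), with stated systolic pressures of 142 ± 5, 94 ± 6 and 69 ± 1.7 mmHg (kind of error not stated). All mice were male, 12 weeks old and on standard chow, with no treatment named in the labels. Whole tissue was profiled on 67 one-colour arrays: aorta from the root down to the left renal artery (9 BPH, 5 BPN and 9 BPL arrays), heart (5 of each strain), kidney (5 BPH, 5 BPN and 4 BPL) and liver (5 of each). The strains differ throughout their genomes, so a strain difference is not a difference in pressure alone, and the inbred strains are each 1 genotype. The design text gives 5 mice per strain, and which animal gave which array is not labelled, so p-values measure only the spread between arrays, which may be technical. In bulk tissue, fewer cells of a type and less RNA per cell cannot be told apart. Levels are log2 of the deposited intensity, differences are in log2 units with the strain named first minus the strain named second, and errors of differences are standard errors (SE) of the fit. A difference was called at a limma p-value below 0.05 after Benjamini-Hochberg adjustment over all 38385 probe sets.

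The tissue labels matched their markers. Summed cardiomyocyte markers lay at 16.12 to 16.21 in heart arrays, kidney tubule markers at 14.19 to 14.43 in kidney arrays, smooth muscle markers at 14.39 to 14.81 in aorta arrays and hepatocyte markers at 15.49 to 15.59 in liver arrays (log2 of the sum). Among the arrays that stood apart were BPN heart arrays 2 and 3 and BPN kidney array 2, with high class I, class II and interferon-induced genes, BPH heart array 5, with summed T cell markers up to 9.60, and BPL aorta array 26, with albumin (Alb) at 10.69. BPH heart array 1, BPN heart array 1 and BPL heart array 4 had the highest heart Alb, at 12.14, 11.69 and 12.00. Over all heart arrays Alb ran from 9.55 to 12.14. Summed hepatocyte markers ran from 10.05 to 12.55 in heart, against 6.74 to 9.19 in kidney. For the members, values without BPN heart arrays 2 and 3 and without BPN kidney array 2 are given with the results. Values without BPH heart array 5 are given for T cell markers, and without BPL aorta array 26 for aortic H2-Q10. Genes outside the 10 were not refitted without those BPN arrays. The interactions were not refitted without BPN heart arrays 2 and 3 together. Summed cardiomyocyte markers in aorta ran from 7.14 to 11.83 in BPH (median 7.57), 8.03 to 9.0 in BPN and 9.60 to 10.67 in BPL, so that every BPL aorta lay above every BPN aorta. Of these 4 markers, 1 was called higher in BPL than in BPN aorta, and their median difference was -0.11.

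The promoters of the genes on which the results turn are shown to place the heavy chains beside each other, since H2-K1, H2-D1, H2-Q7 and H2-Q10 did not move together. The sequences are the 250 bases before the annotated start in RefSeq's GRCm38.p6 mouse reference, which is not the sequence of any of the 3 strains, written 5′ to 3′ on the gene's strand. The windows are chr17:34000334-34000583 (minus strand) for H2-K1, chr17:35262844-35263093 (plus) for H2-D1, chr17:35438905-35439154 (plus) for H2-Q7, chr17:35469839-35470088 (plus) for H2-Q10, chr2:122147437-122147686 (plus) for B2m and chr17:34187306-34187555 (plus) for Tap1. Capitals mark matches, on either strand, to an NF-kB motif (GGGNNTTCC), to the X2 box core (TGACGC) or to an interferon-stimulated response element (GAAA, any 2 bases, GAAA).
H2-K1: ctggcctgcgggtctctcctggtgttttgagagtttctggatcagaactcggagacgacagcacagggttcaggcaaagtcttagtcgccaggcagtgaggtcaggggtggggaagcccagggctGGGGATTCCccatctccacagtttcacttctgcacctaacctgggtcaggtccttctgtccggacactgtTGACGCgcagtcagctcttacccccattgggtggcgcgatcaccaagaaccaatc
H2-D1: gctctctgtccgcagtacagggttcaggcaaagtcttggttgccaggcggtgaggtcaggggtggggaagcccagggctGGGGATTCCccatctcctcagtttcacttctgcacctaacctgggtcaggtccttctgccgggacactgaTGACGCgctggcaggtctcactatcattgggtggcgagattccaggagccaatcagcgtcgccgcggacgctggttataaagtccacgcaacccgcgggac
H2-Q7: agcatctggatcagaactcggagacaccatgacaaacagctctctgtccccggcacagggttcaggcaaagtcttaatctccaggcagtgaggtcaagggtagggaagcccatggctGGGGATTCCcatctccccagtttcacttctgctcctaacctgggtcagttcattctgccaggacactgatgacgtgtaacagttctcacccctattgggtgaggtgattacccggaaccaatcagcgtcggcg
H2-Q10: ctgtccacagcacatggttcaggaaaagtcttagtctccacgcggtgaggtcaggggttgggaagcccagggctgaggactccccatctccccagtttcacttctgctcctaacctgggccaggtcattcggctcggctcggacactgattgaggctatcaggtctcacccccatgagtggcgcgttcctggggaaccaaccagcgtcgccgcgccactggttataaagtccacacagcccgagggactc
B2m: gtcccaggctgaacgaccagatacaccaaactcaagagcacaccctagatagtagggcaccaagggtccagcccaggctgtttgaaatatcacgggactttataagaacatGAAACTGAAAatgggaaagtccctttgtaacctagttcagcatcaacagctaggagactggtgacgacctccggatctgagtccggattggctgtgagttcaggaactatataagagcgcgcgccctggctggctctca
Tap1: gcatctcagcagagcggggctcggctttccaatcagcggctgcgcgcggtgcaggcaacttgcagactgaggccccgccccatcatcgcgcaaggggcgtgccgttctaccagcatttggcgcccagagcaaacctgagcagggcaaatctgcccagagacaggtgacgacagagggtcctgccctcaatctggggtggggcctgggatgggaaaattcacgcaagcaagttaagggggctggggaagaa

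Promoter entries were found for 9 of the 10 genes. The NF-kB letters occurred in the windows of H2-K1, H2-D1 and H2-Q7, each time as GGGGATTCC, and in 4.98% of all 32851 promoter windows. The X2 letters occurred in H2-K1 and H2-D1 and in 6.12% of all windows. None of the motifs searched was found in the H2-Q10 window, which says only that these letters are not there. The interferon-stimulated letters searched occurred in B2m (2.98% of all windows), and a gamma-activated site (TTCNNNGAA, 7.02% of all windows) in Psmb8, as TTCCCAGAA. NF-kB sites, X2 boxes, interferon-stimulated elements and gamma-activated sites with other letters were not searched. Windows without a match were thus not shown to lack such an element. The heavy-chain windows all hold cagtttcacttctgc, which the letters searched do not match. Tap1 and Psmb9 are neighbours read in opposite directions, with start sites 226 bases apart, so that their 300-base entries share 275 bases and the Tap1 sequence above is also most of the Psmb9 promoter. In that table the order along the chromosome is Psmb9, Tap1, Psmb8, Tap2. A match is a description of letters and not of a bound site.

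In heart, most of the 12 probe sets were lower in BPH and in BPL than in BPN, and several were lower in kidney and liver. Each count of called members stands beside the share of all 38385 probe sets that was called lower or higher. In heart, 10 of 12 were lower and 0 higher in BPH than in BPN, against 3.51% lower and 3.51% higher over all probe sets. That count of called members fell to 6 without BPH array 2, BPN array 2 or BPN array 3, and to 4 without both BPN arrays 2 and 3. For BPL hearts, 9 of 12 were lower and 0 higher than in BPN, against 5.2% and 4.14%. The median difference of the 12 was -0.54 for BPH and -0.67 for BPL, while the median over all probe sets was 0.01 in both. These heart comparisons share the BPN arrays, as do the matching comparisons in the other tissues. BPH hearts were lower than BPL hearts in 1 of 12 and higher in 0, against 3.97% and 4.59%, a share near that background.

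In kidney, 8 of 12 probe sets were lower and 0 higher in BPH than in BPN (3.39% and 3.66% over all probe sets, median of the 12 -0.37). BPL kidneys had 4 lower and 1 higher than BPN (3.02% and 3.22%, median -0.20), and BPH kidneys had 2 lower and 0 higher than BPL (3.19% and 3.14%). In liver, 6 were lower and 0 higher in BPH than in BPN (3.85% and 3.29%, median -0.26). BPL livers had 3 lower and 3 higher than BPN (3.7% and 3.77%, median 0.06), and BPH livers had 4 lower and 1 higher than BPL (3.09% and 2.68%). In aorta, 3 were lower and 0 higher in BPH than in BPN (4.7% and 4.45%, median -0.21). BPL aortas had 2 lower and 2 higher than BPN (5.2% and 5.14%), and BPH aortas had 5 lower and 1 higher than BPL (5.36% and 5.67%).

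**Figure D1:**
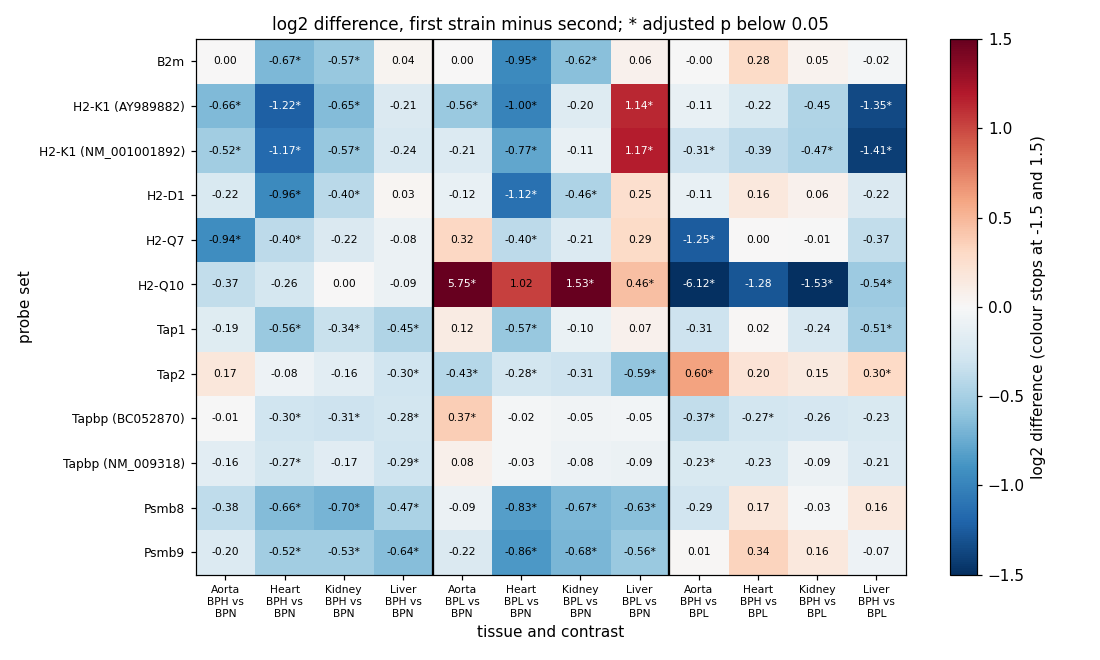
Log2 difference of each of the 12 probe sets (rows) in the 4 tissues for BPH against BPN, BPL against BPN and BPH against BPL (columns); asterisks mark an adjusted p below 0.05. Heart columns against BPN are mostly negative, and the H2-Q10 row is positive in BPL against BPN, reaching 5.75 in aorta.

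B2m encodes beta-2 microglobulin, the light chain that every class I heavy chain needs to reach the surface. In heart the BPN arrays read 12.49, 12.97, 12.88, 12.46 and 12.37, the BPH arrays 12.25, 11.71, 11.99, 11.76 and 12.11, and the BPL arrays 11.74, 11.67, 11.58, 11.76 and 11.66. Every BPN heart array lay above every BPH and BPL array. Against BPN, BPH differed by -0.67 ± 0.12 (1.59-fold lower, adjusted p = 0.00106), and BPL minus BPN was -0.95 ± 0.12 (1.93-fold lower, adjusted p = 2.43e-05).

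Kidney showed the same direction for B2m. The BPN kidneys read 12.06, 12.63, 12.08, 12.14 and 11.72, the BPH kidneys 11.63, 11.41, 11.66, 11.56 and 11.51, and the 4 BPL kidneys 11.56, 11.53, 11.38 and 11.53. No BPN kidney array overlapped the other strains, array 2 was the highest, and the lowest BPN array came close to the highest BPH array. The differences were -0.57 ± 0.12 for BPH (adjusted p = 0.00615) and -0.62 ± 0.13 for BPL (adjusted p = 0.00546), or -0.44 (0.00456) and -0.50 (0.00301) without BPN array 2.

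In liver and aorta B2m was not called in any of the 6 contrasts. Liver arrays read 13.25, 13.13, 13.17, 13.25 and 13.28 in BPH, 13.16, 13.24, 13.12, 13.25 and 13.13 in BPN, and 13.24, 13.28, 13.27, 13.23 and 13.19 in BPL, and the 3 strains overlapped. The fitted BPH minus BPN difference was 0.04 ± 0.06 in liver (adjusted p = 0.81). In aorta the 9 BPH arrays ran from 12.86 to 13.04 (median 12.91), the 5 BPN arrays read 12.88, 12.94, 12.90, 12.99 and 12.92, and the 9 BPL arrays ran from 12.82 to 13.01 (median 12.95). The strains overlapped there too, and the fitted differences were 0.00 ± 0.06 for both BPH and BPL against BPN (adjusted p = 0.996 and 0.991).

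**Figure D2:**
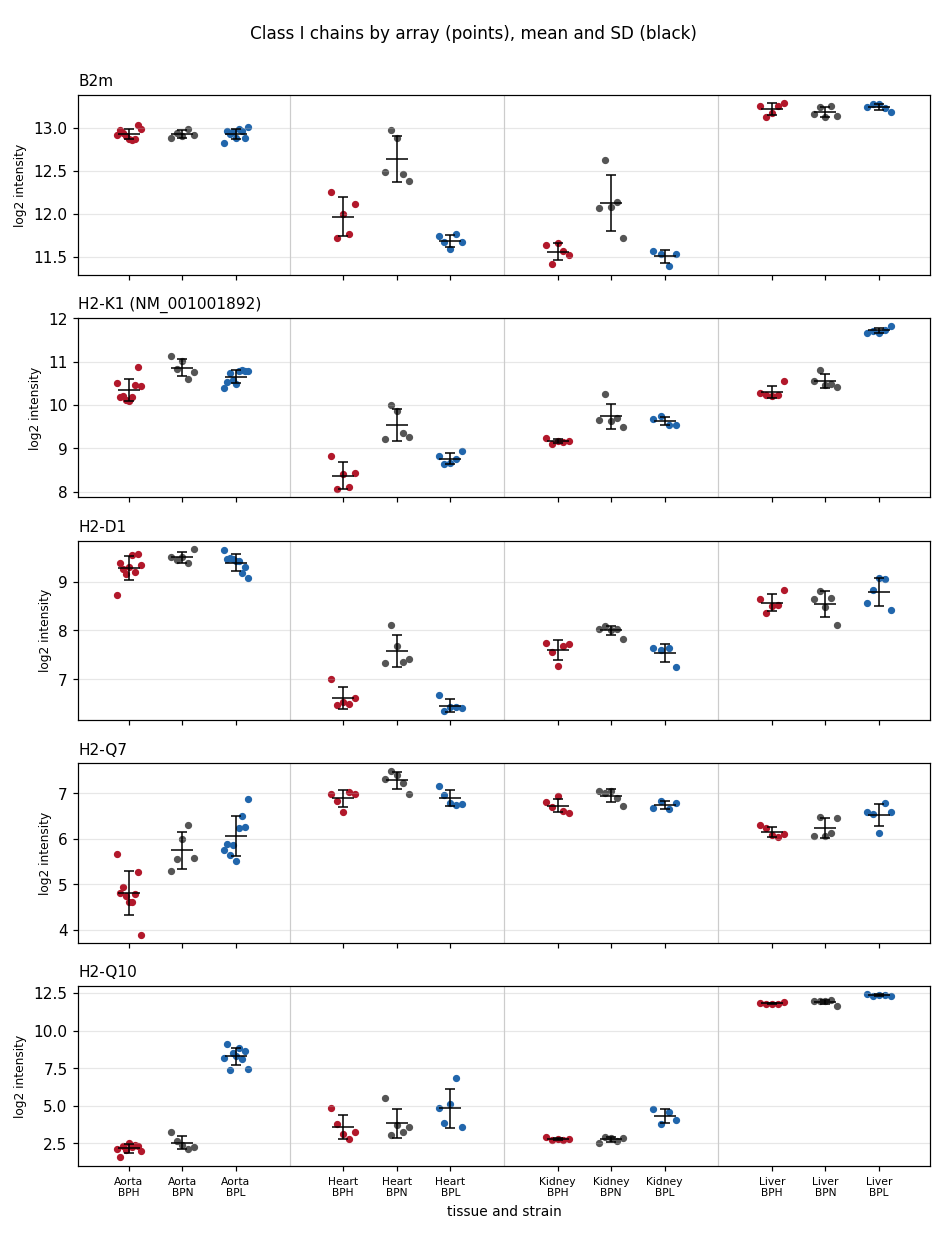
Log2 intensity of B2m, H2-K1 (probe set NM_001001892), H2-D1, H2-Q7 and H2-Q10 in every array (points; red BPH, grey BPN, blue BPL) with the mean and SD of each group in black, by tissue. BPN hearts lie highest for B2m, H2-K1 and H2-D1, BPL livers highest for H2-K1, and BPL aortas stand alone for H2-Q10.

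H2-K1 is a classical heavy chain that presents peptides to CD8+ T cells, and it was read by 2 probe sets, named here by their accessions NM_001001892 and AY989882. Class I heavy chains are near-identical copies that differ between strains, and the probe sequences were not used here, so which chain or allele a probe set reads was not tested. In heart, NM_001001892 read 9.21, 9.997, 9.86, 9.35 and 9.27 in BPN, 8.83, 8.06, 8.42, 8.11 and 8.44 in BPH, and 8.82, 8.63, 8.66, 8.76 and 8.95 in BPL. All BPN heart arrays were above all others. The differences from BPN were -1.17 ± 0.16 in BPH (2.24-fold lower, adjusted p = 6.71e-05) and -0.77 ± 0.16 in BPL (1.71-fold lower, adjusted p = 0.00314). AY989882 gave -1.22 and -1.0, again without overlap.

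In liver H2-K1 went the other way in BPL. BPL livers read 11.66, 11.70, 11.66, 11.73 and 11.82, against 10.56, 10.81, 10.45, 10.47 and 10.41 in BPN and 10.27, 10.23, 10.21, 10.23 and 10.56 in BPH. The BPL arrays lay well above every array of the other strains, which overlapped each other. Against BPN, BPL differed by 1.17 ± 0.08 (2.26-fold higher, adjusted p = 1.13e-08) and BPH minus BPL was -1.41 ± 0.08 (adjusted p = 6.58e-10), with 1.14 and -1.35 from AY989882. BPH minus BPN was -0.24 ± 0.08 and was not called (adjusted p = 0.101), although it was with an intensity-dependent prior variance (0.0446). H2-Bl, a class I gene of the same region, was higher in BPL liver by 1.77 ± 0.11 (adjusted p = 1.54e-09).

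In kidney, BPN arrays read 9.65, 10.25, 9.62, 9.69 and 9.48 for NM_001001892, BPH arrays 9.24, 9.11, 9.17, 9.14 and 9.17, and BPL arrays 9.69, 9.74, 9.54 and 9.55. BPH was below both other strains in every array, while BPN and BPL overlapped. Against BPN, BPH differed by -0.57 ± 0.11 (adjusted p = 0.00264), BPL minus BPN -0.11 ± 0.12 (adjusted p = 0.695) and BPH minus BPL -0.47 ± 0.12 (adjusted p = 0.0209). The last call was lost when BPH array 2, BPL array 1 or BPL array 2 was left out (adjusted p up to 0.0711). AY989882 was also called lower in BPH than in BPN. Its BPH minus BPL difference, -0.45, was not called. Alternatives that called it were leaving out dim probe sets (adjusted p = 0.047), probe sets of 1 gene symbol only (0.0475) and median centring (0.0444). Array weights (0.0283), an intensity-dependent prior variance (0.025) and only these strains in the fit (0.00627) called it too.

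In aorta the 2 H2-K1 probe sets were both lower in BPH than in BPN. NM_001001892 ran from 10.101 to 10.88 in BPH (median 10.21) and from 10.40 to 10.80 in BPL (median 10.73), with BPN at 11.12, 10.82, 11.005, 10.61 and 10.75. Only BPH array 10 reached the BPN range. The fitted BPH minus BPN difference was -0.52 ± 0.12 (adjusted p = 0.00352) and BPH minus BPL -0.31 ± 0.10 (adjusted p = 0.04). The second call was lost without any 1 of BPH arrays 3, 5, 6, 7 and 8 or BPL arrays 23, 26, 27, 28 and 29 (adjusted p up to 0.0822), and with median centring (0.0519), and AY989882, at -0.11 ± 0.11, was not called for BPH against BPL (adjusted p = 0.664). For BPL against BPN the probe sets split: AY989882 was lower, -0.56 ± 0.13 (adjusted p = 0.0067), and NM_001001892, at -0.21 ± 0.12, was not called (adjusted p = 0.325).

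H2-D1 is the other classical heavy chain measured. BPN hearts read 7.34, 8.11, 7.68, 7.35 and 7.42, BPH hearts 7.01, 6.47, 6.54, 6.48 and 6.61, and BPL hearts 6.69, 6.35, 6.42, 6.43 and 6.41. The BPN arrays did not overlap the others, and array 1 was the highest of its strain in both BPH and BPL. The differences from BPN were -0.96 ± 0.14 in BPH (1.94-fold lower, adjusted p = 0.00012) and -1.12 ± 0.14 in BPL (2.17-fold lower, adjusted p = 1.89e-05).

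H2-D1 was also lower in kidney, with BPN at 8.04, 8.09, 8.01, 8.03 and 7.83, BPH at 7.75, 7.57, 7.26, 7.69 and 7.73, and BPL at 7.64, 7.61, 7.65 and 7.26. BPN again lay above every other array. The differences were -0.40 ± 0.10 in BPH (adjusted p = 0.0182, and 0.0724 in a joint fit of all tissues) and -0.46 ± 0.11 in BPL (adjusted p = 0.0122). Liver arrays overlapped, with BPH at 8.65, 8.35, 8.5, 8.52 and 8.83, BPN at 8.65, 8.81, 8.47, 8.68 and 8.11, and BPL at 8.56, 8.83, 9.08, 9.07 and 8.43. Neither liver difference from BPN was called (0.03 ± 0.14 and 0.25 ± 0.14). Aorta ran from 8.72 to 9.57 in BPH and 9.08 to 9.65 in BPL, overlapping BPN at 9.38 to 9.68, and no contrast was called.

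H2-Q7 encodes a non-classical heavy chain of the Qa-2 type. It was lower in BPH aorta than in both other strains: BPH ran from 3.89 to 5.66 (median 4.78), BPN read 5.30, 5.55, 6.00, 6.30 and 5.58, and BPL ran from 5.51 to 6.88 (median 5.88). Most BPH aortas lay below the other strains, with some overlap. BPH minus BPN was -0.94 ± 0.23 (1.91-fold lower, adjusted p = 0.00933) and BPH minus BPL was -1.25 ± 0.20 (2.38-fold lower, adjusted p = 5.19e-05). BPL minus BPN, 0.32 ± 0.23, was not called (adjusted p = 0.508).

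Heart H2-Q7 read 7.32, 7.48, 7.40, 7.23 and 7.0 in BPN, 6.99, 6.84, 6.60, 7.02 and 7.0 in BPH, and 7.16, 6.97, 6.79, 6.75 and 6.78 in BPL. BPN tended to the top of a shared range. Both differences were -0.40 ± 0.10 (adjusted p = 0.0266 for BPH and 0.0219 for BPL). Each call was lost without BPN array 2 or 3, the first also without BPH array 2 or 3 or BPN array 1, the second also without BPL array 3, 4 or 5 (adjusted p up to 0.08 and 0.0642), and both were lost with quantile normalization (0.0609 and 0.0574) and in the joint fit (0.422 and 0.34). Kidney ranges were 6.57 to 6.94 in BPH, 6.72 to 7.05 in BPN and 6.65 to 6.83 in BPL, and liver ranges 6.04 to 6.31, 6.05 to 6.47 and 6.12 to 6.78. No H2-Q7 contrast was called in those tissues, but in liver BPH minus BPL (-0.37) was called with median centring (adjusted p = 0.0324), array weights (0.0156) and the replicate block (0.0439), and BPL minus BPN (0.29) with array weights (0.0491).

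H2-Q10, which encodes a soluble class I chain known from liver, gave the widest differences of the 12 probe sets. The 9 BPL aortas ran from 7.41 to 9.14 (median 8.32), against 1.56 to 2.55 in BPH (median 2.26) and 3.24, 2.68, 2.37, 2.12 and 2.27 in BPN. Every BPL aorta was far above every other aorta. The fitted BPL minus BPN difference was 5.75 ± 0.24 (adjusted p = 1.43e-15) and BPH minus BPL was -6.12 ± 0.20 (adjusted p = 7.6e-18). The means of BPH and BPN lie in the lowest 25% of intensities in aorta (below 2.90, on the log2 scale), where a level may be background, so no fold is given, and a pseudocount of 16 shortens the second difference to -4.0.

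Markers of other cell types were read in the same aortas. Alb in the BPL aortas read 2.84, 4.27, 3.30, 5.58, 3.09, 10.69, 2.64, 2.75 and 4.08 for arrays 21 to 29, and only array 26 was high. H2-Q10 in those arrays read 8.20, 9.14, 7.41, 8.51, 8.32, 8.82, 8.10, 8.65 and 7.43. None of the 4 hepatocyte markers measured was called between aortas (by limma at an unadjusted p below 0.05, 0 against BPN and 1 for BPH against BPL), and the summed level ran from 5.99 to 6.45 in BPH, 6.18 to 7.70 in BPN and 5.93 to 12.69 in BPL. With each array left out in turn, array 26 included, BPL minus BPN stayed between 5.64 and 5.92. Of the 4 cardiomyocyte markers, only Actc1, the cardiac actin, was called between BPL and BPN aorta, and it was higher in BPL (3.5 ± 0.60, adjusted p = 0.000181). The median difference of the 4 was -0.11. Their summed level was higher in every BPL aorta than in every BPN aorta, but it does not stand for all 4 markers. The part of hepatocyte or cardiomyocyte RNA in the aortic H2-Q10 difference was not tested.

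In kidney H2-Q10 read 4.80, 3.76, 4.60 and 4.07 in BPL, 2.90, 2.71, 2.78, 2.73 and 2.76 in BPH, and 2.55, 2.92, 2.88, 2.64 and 2.88 in BPN. BPL lay above both other strains, whose means are in the lowest 25% of kidney intensities (below 3.49). BPL minus BPN was 1.53 ± 0.16 (adjusted p = 6.9e-06), or 0.66 with a pseudocount of 16. Kidney Alb overlapped between strains, from 5.21 to 5.81 in BPL, 5.27 to 6.54 in BPH and 5.24 to 5.60 in BPN. The summed hepatocyte markers did not overlap (8.86 to 9.19, 8.09 to 8.49 and 6.74 to 6.83). That sum followed the marker Ttr, at 8.50 to 8.93 in BPL, 7.52 to 7.88 in BPH and 4.47 to 4.74 in BPN. Apoa2 and Fgb overlapped between strains, as Alb did. Against BPN, 2 of the 4 markers were called higher in BPL and 1 in BPH. The part of these markers in the result was not tested.

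Heart H2-Q10 varied within strains: 4.82, 3.8, 3.12, 2.82 and 3.24 in BPH, 5.52, 3.05, 3.71, 3.23 and 3.59 in BPN, and 4.82, 3.82, 5.09, 6.87 and 3.60 in BPL. BPH array 1, BPN array 1 and BPL array 4 were the highest of their strains. The same arrays had the highest Alb of their strains, at 12.14, 11.69 and 12.00. H2-Q10 did not follow Alb in all hearts. BPL arrays 1, 2, 3 and 5 had Alb at 9.61, 9.70, 9.55 and 9.89, with H2-Q10 at 4.82, 3.82, 5.09 and 3.60. BPH array 1 had H2-Q10 at 4.82 with its Alb at 12.14. The part of hepatocyte signal in heart H2-Q10 was not tested. No heart contrast was called (BPL minus BPN 1.02 ± 0.56, adjusted p = 0.313, and BPH minus BPL -1.28 ± 0.56, adjusted p = 0.194), although the joint fit called the second (0.0139).

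Liver is the tissue where H2-Q10 was high in all strains, with BPL at 12.42, 12.32, 12.39, 12.34 and 12.27, BPN at 11.94, 11.94, 11.94, 12.03 and 11.62, and BPH at 11.84, 11.77, 11.75, 11.79 and 11.88. BPL livers lay above all others. Against BPN, BPL differed by 0.46 ± 0.07 (1.37-fold higher, adjusted p = 0.000296) and BPH minus BPL -0.54 ± 0.07 (adjusted p = 4.7e-05). In a joint fit of all tissues, where the spread of H2-Q10 is shared, neither was called (adjusted p = 0.725 and 0.664).

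**Figure D3:**
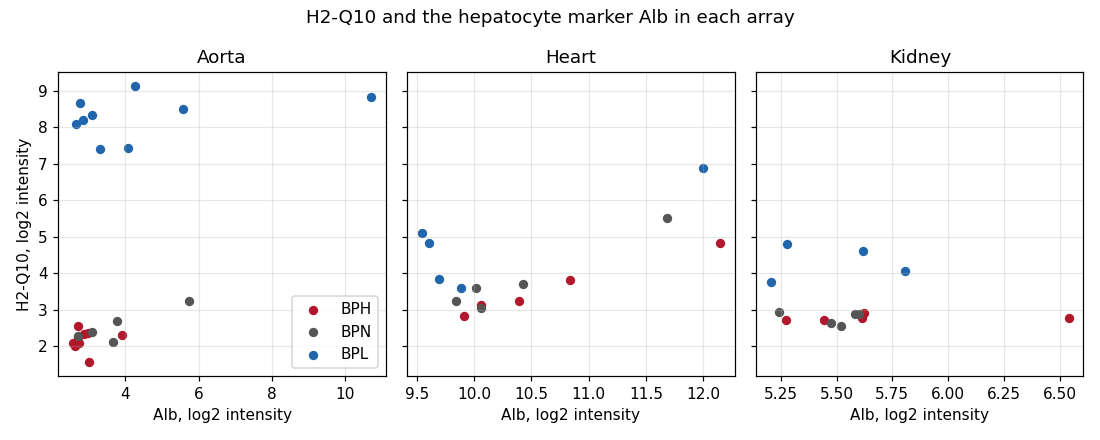
H2-Q10 against Alb, both as log2 intensity, in each aorta, heart and kidney array, with strains by colour. The BPL aortas sit at 7.41 or above whatever their Alb, while in heart the arrays with Alb from 11.69 to 12.14 have the highest H2-Q10 of their strains. BPL heart arrays 1, 2, 3 and 5, with Alb from 9.55 to 9.89, have H2-Q10 from 3.60 to 5.09.

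Psmb8 and Psmb9 are catalytic subunits of the immunoproteasome, which cuts proteins into peptides suited to class I. Both were lower than in BPN in heart, kidney and liver of both other strains. For Psmb8, BPN hearts read 8.29, 9.02, 9.0, 8.51 and 8.22, BPH hearts 8.05, 7.82, 7.89, 7.64 and 8.36, and BPL hearts 7.72, 7.81, 7.83, 7.76 and 7.78. BPL lay below all BPN arrays, and BPH array 5 overlapped BPN. The differences were -0.66 ± 0.15 in BPH (1.58-fold lower, adjusted p = 0.00969) and -0.83 ± 0.15 in BPL (1.78-fold lower, adjusted p = 0.00122).

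BPN kidneys read 7.66, 8.28, 7.74, 7.99 and 7.39 for Psmb8, BPH kidneys 6.99, 6.98, 7.34, 7.17 and 7.07, and BPL kidneys 7.35, 7.40, 6.82 and 7.01. The BPH arrays did not overlap BPN, and BPL array 2 did by a narrow margin. The differences were -0.70 ± 0.15 in BPH (adjusted p = 0.00599) and -0.67 ± 0.16 in BPL (adjusted p = 0.0147). The second was lost without BPL array 4 (adjusted p = 0.0603).

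Liver Psmb8 read 8.92, 9.08, 8.84, 8.76 and 8.46 in BPN, 8.38, 8.20, 8.36, 8.30 and 8.45 in BPH, and 8.31, 8.20, 8.19, 8.02 and 8.17 in BPL. BPN array 5 was the lowest of its strain and still above both others. The differences were -0.47 ± 0.09 in BPH (1.39-fold lower, adjusted p = 0.00308) and -0.63 ± 0.09 in BPL (1.55-fold lower, adjusted p = 0.000158). Aorta ran from 8.70 to 9.64 in BPH, 9.0 to 9.91 in BPN and 9.16 to 9.59 in BPL. No aorta contrast was called (BPH minus BPN -0.38 ± 0.13, adjusted p = 0.0701), although BPH minus BPN was called without BPH array 10 or BPN array 14 (adjusted p down to 0.00951).

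Psmb9 followed with BPN hearts at 7.44, 8.01, 8.10, 7.59 and 7.16, BPH hearts at 7.31, 6.98, 7.11, 6.95 and 7.36, and BPL hearts at 6.72, 6.83, 6.87, 6.81 and 6.80. BPL arrays were below every array of the other strains, while BPH overlapped the lower BPN arrays. The fitted BPL minus BPN difference was -0.86 ± 0.14 (1.81-fold lower, adjusted p = 0.000527). Against BPN, BPH differed by -0.52 ± 0.14 (adjusted p = 0.0314), and this call was lost without any 1 of arrays 2, 3 and 4 of either strain (adjusted p up to 0.0935), with only these strains in the fit (0.0819) and with the replicate block (0.0541).

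In kidney Psmb9 read 6.65, 7.21, 6.76, 6.94 and 6.50 in BPN, 6.38, 6.18, 6.24, 6.27 and 6.35 in BPH, and 6.41, 6.20, 5.94 and 5.96 in BPL. In liver it read 7.99, 8.12, 7.88, 7.92 and 7.65 in BPN, 7.37, 7.26, 7.28, 7.14 and 7.34 in BPH, and 7.52, 7.43, 7.40, 7.08 and 7.32 in BPL. In both tissues every BPN array was above every other array. The kidney differences were -0.53 ± 0.12 in BPH (adjusted p = 0.0102) and -0.68 ± 0.13 in BPL (adjusted p = 0.00233), and the liver differences -0.64 ± 0.09 (1.55-fold lower, adjusted p = 0.000126) and -0.56 ± 0.09 (1.48-fold lower, adjusted p = 0.000406). Aorta values ran from 7.32 to 8.72 in BPH, 7.56 to 8.20 in BPN and 7.51 to 7.91 in BPL, with no contrast called.

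**Figure D4:**
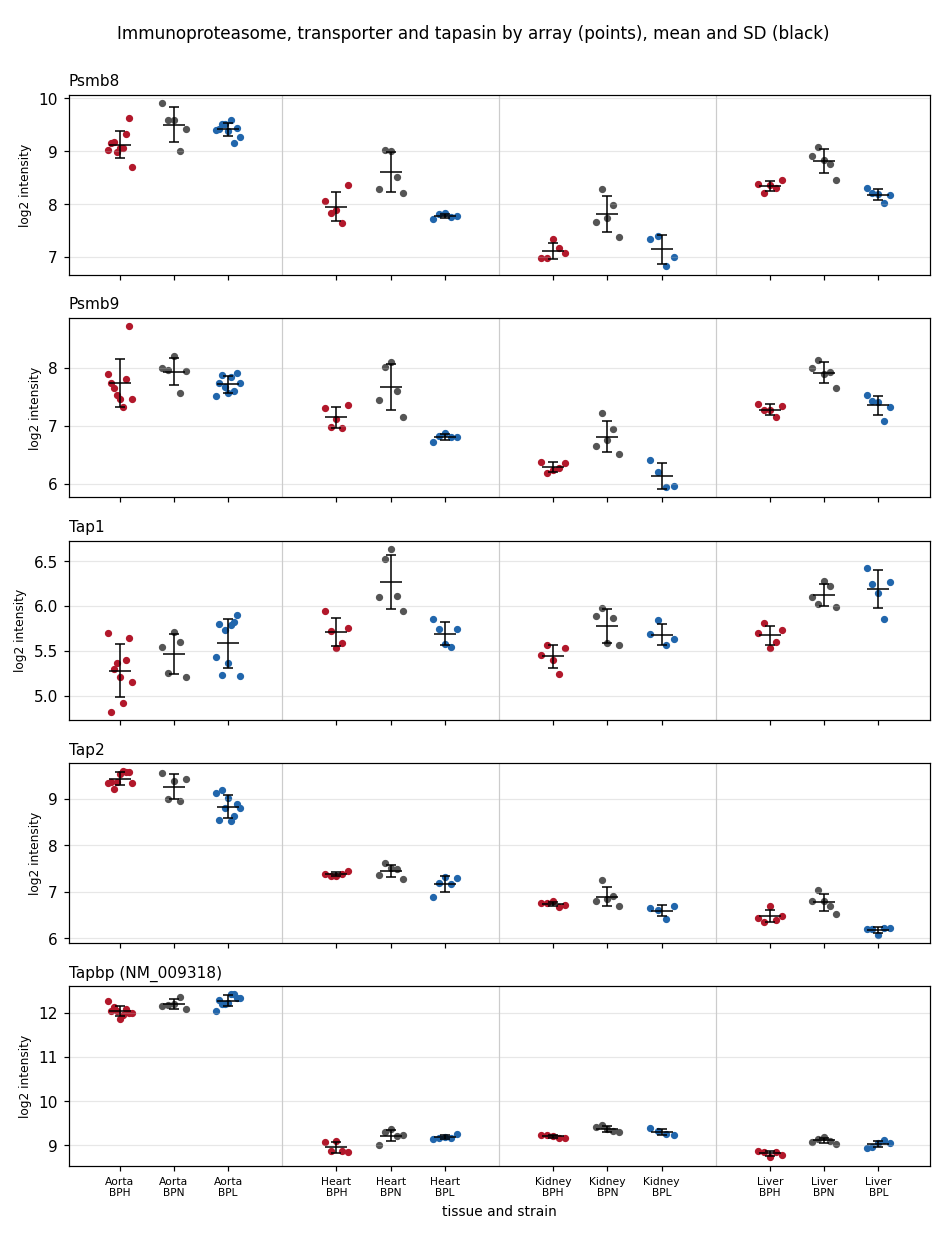
Log2 intensity of Psmb8, Psmb9, Tap1, Tap2 and Tapbp (probe set NM_009318) in every array (points; red BPH, grey BPN, blue BPL), with group mean and SD in black, by tissue. BPN lies highest for Psmb8 and Psmb9 in heart, kidney and liver, whereas Tap2 is lowest in BPL in aorta and liver.

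Tap1, a subunit of the peptide transporter, was lower in BPH in 3 tissues. Heart arrays read 6.10, 6.53, 6.64, 6.11 and 5.94 in BPN, 5.94, 5.72, 5.53, 5.59 and 5.76 in BPH, and 5.85, 5.74, 5.58, 5.54 and 5.74 in BPL. The lowest BPN array and the highest BPH array met without crossing. The fitted BPH minus BPN difference was -0.56 ± 0.12 (1.47-fold lower, adjusted p = 0.00595) and BPL minus BPN -0.57 ± 0.12 (1.49-fold lower, adjusted p = 0.00399).

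In liver Tap1 read 6.10, 6.02, 6.28, 6.22 and 5.99 in BPN, 5.70, 5.81, 5.53, 5.60 and 5.73 in BPH, and 6.42, 6.25, 6.14, 5.86 and 6.27 in BPL. BPH lay below both other strains, which overlapped. BPH minus BPN was -0.45 ± 0.09 (adjusted p = 0.00471), BPH minus BPL -0.51 ± 0.09 (adjusted p = 0.00146), and BPL minus BPN 0.07 ± 0.09, not called (adjusted p = 0.802). Psmb9, whose reference promoter window overlaps that of Tap1, was lower in BPL liver, as given above. The part of the promoter in either gene's differences was not tested.

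Kidney Tap1 read 5.89, 5.97, 5.59, 5.87 and 5.57 in BPN, 5.46, 5.57, 5.40, 5.24 and 5.53 in BPH, and 5.69, 5.84, 5.57 and 5.63 in BPL. BPH touched the lower edge of BPN. Against BPN, BPH differed by -0.34 ± 0.09 (adjusted p = 0.0321), lost without any 1 of BPH arrays 1, 3 and 4 or BPN arrays 1, 2 and 4 (up to 0.09), with array weights (0.0553) and in the joint fit (0.179). Aorta ran from 4.82 to 5.70 in BPH, 5.21 to 5.71 in BPN and 5.22 to 5.90 in BPL, with no contrast called.

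Tap2, the partner of Tap1 in the transporter, was lowest in BPL. BPL aortas ran from 8.51 to 9.19 (median 8.80), BPH aortas from 9.21 to 9.59 (median 9.37), and BPN aortas read 9.55, 8.99, 9.39, 8.95 and 9.43. BPL and BPH did not overlap, and BPN spanned the gap between them. BPH minus BPL was 0.60 ± 0.10 (1.51-fold higher, adjusted p = 0.000123). BPL minus BPN was -0.43 ± 0.12 (adjusted p = 0.0194), lost without BPN array 11, 13 or 15 (up to 0.0804) and with only these strains in the fit (0.0569).

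BPL livers read 6.19, 6.19, 6.07, 6.22 and 6.21 for Tap2, BPH livers 6.44, 6.35, 6.69, 6.40 and 6.49, and BPN livers 6.81, 7.03, 6.81, 6.68 and 6.53. BPL lay below all other livers, and BPN was mostly above BPH. Against BPN, BPL differed by -0.59 ± 0.09 (1.51-fold lower, adjusted p = 0.00012). BPH minus BPN, -0.30 ± 0.09 (adjusted p = 0.0417), and BPH minus BPL, 0.30 ± 0.09 (adjusted p = 0.0495), were close to the threshold. Of 15 fits that each left out 1 liver array, the first call was lost in 11 (all but those without BPH array 3, BPL arrays 3 or 5, or BPN array 5) and the second in 12 (all but BPH array 2 and BPN arrays 2 and 5), with adjusted p up to 0.114 and 0.139. Both were lost in the joint fit (0.101 and 0.122).

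Heart Tap2 read 7.36, 7.61, 7.5, 7.49 and 7.28 in BPN, 7.38, 7.34, 7.33, 7.37 and 7.44 in BPH, and 6.89, 7.19, 7.33, 7.16 and 7.30 in BPL. The fitted BPL minus BPN difference was -0.28 ± 0.08 (adjusted p = 0.0347), with overlapping arrays, and the call was lost without any 1 of BPL arrays 1, 2 and 4 or BPN arrays 2, 3 and 4 (up to 0.097) and in the joint fit (0.162). In kidney the ranges were 6.66 to 6.80 in BPH, 6.68 to 7.25 in BPN and 6.42 to 6.68 in BPL. No kidney contrast was called for Tap2 (BPL minus BPN -0.31 ± 0.09, adjusted p = 0.0686).

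Tapasin (Tapbp), which bridges the transporter and the empty heavy chain, was read by 2 probe sets, and its differences were small. In liver, NM_009318 read 9.08, 9.14, 9.20, 9.10 and 9.03 in BPN, 8.87, 8.85, 8.72, 8.86 and 8.78 in BPH, and 8.94, 8.97, 9.05, 9.13 and 9.04 in BPL. BPH lay below both other strains. The fitted BPH minus BPN difference was -0.29 ± 0.06 (1.23-fold lower, adjusted p = 0.00415), and BC052870 gave -0.28 ± 0.07 (adjusted p = 0.024), lost without any 1 of arrays 1, 3 and 4 of BPH or of BPN (up to 0.0652). BPH minus BPL was not called for NM_009318 (-0.21) or BC052870 (-0.23). Both were called with a pseudocount of 16 (adjusted p = 0.0049 and 0.035) and an intensity-dependent prior variance (0.0165 and 0.0481). NM_009318 was also called with quantile normalization (0.0419), array weights (0.0465), without dim probe sets (0.0375) and with probe sets of 1 gene symbol only (0.0359).

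In heart, BPH minus BPN was -0.27 ± 0.07 for NM_009318 and -0.30 ± 0.08 for BC052870 (both adjusted p = 0.0269). NM_009318 read 9.01, 9.30, 9.37, 9.21 and 9.22 in BPN, 9.08, 8.87, 9.09, 8.87 and 8.85 in BPH, and 9.15, 9.17, 9.20, 9.18 and 9.25 in BPL. BPH overlapped BPN through BPN array 1 and lay below every BPL array. Both calls against BPN were lost with only these strains in the fit (0.0649 and 0.0553) and without BPH array 2, 4 or 5 or BPN array 2 or 3, that of NM_009318 also without BPN array 4 or 5 (up to 0.0811). BPH minus BPL was called for BC052870 alone (-0.27 ± 0.08, adjusted p = 0.0384; -0.23 ± 0.07 and 0.0504 for NM_009318). That call was lost without BPH array 2, 4 or 5 or any BPL array from 2 to 5 (up to 0.0974), and with median centring (0.0769), the replicate block (0.0542) and the joint fit (0.0594).

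In kidney, BC052870 was lower in BPH than in BPN (-0.31 ± 0.07, adjusted p = 0.0178), and NM_009318, at -0.17 ± 0.06, was not called (adjusted p = 0.0885). NM_009318 read 9.41, 9.46, 9.37, 9.33 and 9.30 in BPN, 9.24, 9.23, 9.21, 9.17 and 9.17 in BPH, and 9.39, 9.32, 9.25 and 9.23 in BPL. BPH arrays lay below all BPN arrays. In aorta, BC052870 was higher in BPL than in BPN (0.37 ± 0.10, adjusted p = 0.0138) with no overlap, 6.90 to 7.19 against 6.56 to 6.82, while NM_009318 was not called (0.08 ± 0.08, adjusted p = 0.659). BPH aorta was lower than BPL aorta in both probe sets, -0.37 ± 0.08 (adjusted p = 0.00248) and -0.23 ± 0.06 (adjusted p = 0.0165). NM_009318 ran from 11.86 to 12.26 in BPH aorta and from 12.03 to 12.42 in BPL aorta, with BPN at 12.14, 12.18, 12.21, 12.36 and 12.08.

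Whether a strain difference itself differed between tissues was tested as an interaction among heart, kidney and liver, which shared 1 labelling protocol, with the highest-mean probe set of each gene. For BPH against BPN, 3 of 10 genes differed between heart and liver (5.96% of all probe sets): B2m by -0.71 ± 0.15 (adjusted p = 0.00125), H2-K1 by -0.92 ± 0.18 (0.000417) and H2-D1 by -0.99 ± 0.19 (0.000419). B2m differed between kidney and liver as well, by -0.61 ± 0.15 (0.008), the 1 gene of 10 there (4.82%). The light chain and the classical heavy chains were thus lower in BPH heart by more than in BPH liver, where none of the 3 was called. In liver, H2-K1 was called only with an intensity-dependent prior variance (0.0446). The interactions, here and for BPL, include BPN heart arrays 2 and 3 and were not refitted without both. Heart and kidney differed in H2-K1 alone (1 of 10, 4.36%), by -0.59 ± 0.18 (0.0475), a call lost in 34 of 44 fits that left out 1 array (adjusted p up to 0.132) and with median centring (0.0543). The count of 1 of 10, here and for kidney and liver, is near the share over all probe sets.

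For BPL against BPN, heart and liver differed in 5 of 10 genes (7.42%): H2-K1 by -1.95 ± 0.18 (adjusted p = 5.44e-11), H2-D1 by -1.37 ± 0.19 (1.15e-06), B2m by -1.01 ± 0.15 (3.4e-06), H2-Q7 by -0.69 ± 0.15 (0.00169) and Tap1 by -0.64 ± 0.15 (0.00382). Kidney and liver differed in 4 (5.48%): H2-K1 by -1.28 ± 0.19 (2.63e-06), B2m by -0.68 ± 0.15 (0.00286), H2-D1 by -0.71 ± 0.20 (0.0211) and H2-Q7 by -0.50 ± 0.16 (0.047). The H2-D1 call was lost without kidney BPL array 5, liver BPL array 4 or liver BPN array 5 (up to 0.0684), and the H2-Q7 call in 25 of 44 such fits (up to 0.108) and with quantile normalization (0.0797). Array weights also ended the H2-D1 call (0.0516). Heart and kidney differed in 2 (5.81%), H2-K1 by -0.67 ± 0.19 (0.0213) and H2-D1 by -0.66 ± 0.20 (0.0368). H2-K1 was lost there without heart BPN array 2 or 3, kidney BPL array 2 or kidney BPN array 5 (up to 0.059), and H2-D1 in 11 of 44 fits (up to 0.0962) and with quantile normalization (0.0535). Psmb8 and Psmb9, lower in all 3 tissues, were not called in these interactions (adjusted p from 0.403 to 0.995).

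BPN heart arrays 2 and 3 carried the highest values of their strain for every member probe set except H2-Q10. The same arrays were highest for Igtp, an interferon-induced GTPase, at 8.84 and 9.09 against 7.49, 7.31 and 6.94 in the other BPN hearts, and for the class II chain H2-Ab1, at 10.16 and 9.94 against 9.11, 9.36 and 9.13. Without both arrays, 4 of 12 probe sets remained called for BPH against BPN. These were B2m (-0.48, adjusted p = 0.0123), the H2-K1 probe sets (-0.95 and -0.91, 0.00034 and 0.00052) and H2-D1 (-0.75, 0.000503). Tap1 (-0.34, 0.0554), Psmb8 (-0.39, 0.0961) and Psmb9 (-0.25, 0.274) were then not called. H2-Q7 (-0.29, 0.235) and the Tapbp probe sets (-0.19 and -0.20, 0.243 and 0.263) were also not called.

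For BPL against BPN without those arrays, B2m (-0.76, adjusted p = 0.00022), H2-K1 (-0.73 and -0.52, 0.00334 and 0.0345), H2-D1 (-0.91, 6.96e-05), Tap1 (-0.36, 0.0355), Psmb8 (-0.56, 0.0102) and Psmb9 (-0.59, 0.0025) were still called. H2-Q7 (-0.29, 0.192) and Tap2 (-0.21, 0.243) were not. The part of the interferon-induced and class II signal in these results was not tested.

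Without BPN kidney array 2, 7 of the 8 kidney calls for BPH against BPN and all 5 for BPL against BPN were kept. For BPH these were H2-K1 (-0.51 and -0.45, adjusted p = 0.00165 and 0.000432), H2-D1 (-0.38, 0.0478), Tapbp probe set BC052870 (-0.29, 0.0473), Psmb8 (-0.59, 0.0134) and Psmb9 (-0.43, 0.0213), besides B2m. Tap1 (-0.29, 0.0871) was not called. For BPL, H2-D1 (-0.44, 0.0308), Psmb8 (-0.55, 0.0298) and Psmb9 (-0.58, 0.00355) were lower and H2-Q10 (1.57, 1.91e-05) was higher, besides B2m.

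**Figure D5:**
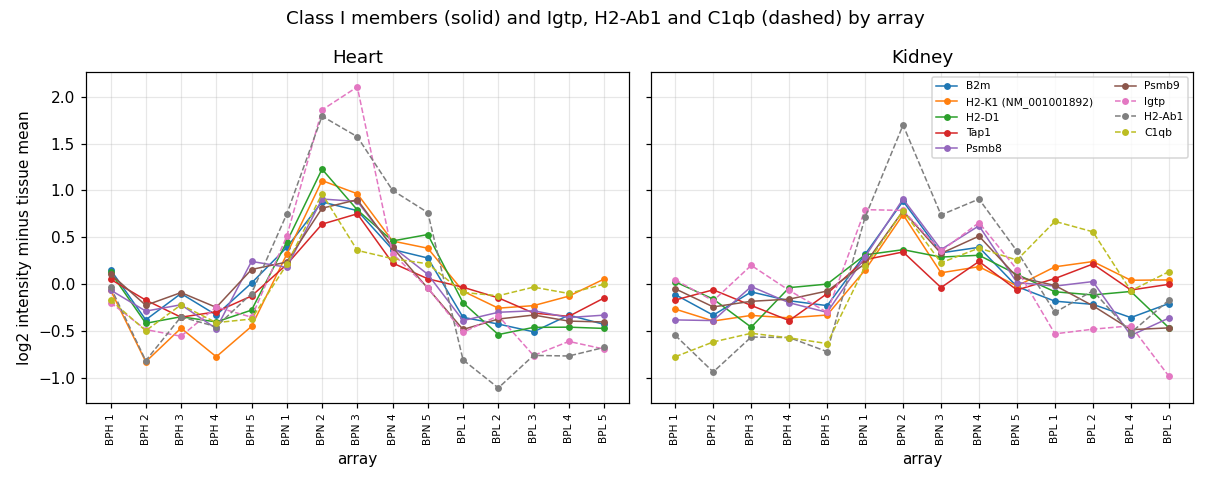
Log2 intensity minus the tissue mean for 6 class I members (solid lines) and for Igtp, H2-Ab1 and the macrophage gene C1qb (dashed lines), in each heart and kidney array; lines only join the points of a gene. BPN heart arrays 2 and 3 and BPN kidney array 2 are the highest for most members.

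Genes outside the 10 were counted by role, from lists chosen with earlier results of these data known, each gene by its highest-mean probe set. Only list genes with a probe set are counted, and the median difference over all probe sets lay between -0.01 and 0.01 in every comparison with BPN. Over all probe sets, 3.02% to 5.2% were lower and 3.22% to 5.14% higher in these comparisons. Of 14 further genes of the loading complex and peptide supply, 1 was lower in BPH than in BPN in heart and 3 in liver, with list medians of -0.05 and -0.06, while by limma 0 were called in aorta and kidney (3 in each at an unadjusted p below 0.05). Over all probe sets 3.51% were lower in BPH heart and 3.85% in BPH liver, so 1 of 14 is near that share. The heart gene was Tapbpl, a tapasin relative that edits peptides (-0.27 ± 0.08, adjusted p = 0.0452), and in liver Tapbpl (-0.23 ± 0.06, 0.0275), the third immunoproteasome subunit Psmb10 (-0.24 ± 0.06, 0.0157) and the translocon subunit Sec61a1 (-0.32 ± 0.06, 0.0025) were lower. For BPL against BPN, Psmb10 (-0.49 ± 0.11, 0.00557) and the proteasome assembly factor Pomp (-0.26 ± 0.05, 0.0026) were lower in heart.

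The constitutive proteasome subunits that Psmb8 and Psmb9 replace, Psmb5 and Psmb6, behaved unlike each other. Psmb6 was lower in BPL than in BPN in heart (-0.57 ± 0.06, adjusted p = 3.77e-06), kidney (-0.55 ± 0.06, 8.93e-06) and liver (-0.51 ± 0.07, 2.92e-05), and in BPH it was not called in these tissues. Psmb5 was not called in any contrast. Of the 12 constitutive subunits, 1 was lower in BPH heart and 6 in BPL heart, with medians of -0.04 and -0.16. Over all probe sets 3.51% and 5.2% were lower there, so 1 of 12 is near that share. In kidney and liver 0 were called for BPH by limma (2 and 4 at an unadjusted p below 0.05). For BPL 1 was lower and 2 higher in kidney (3.02% and 3.22% over all probe sets), and 1 was lower in liver (3.7%).

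Of 14 other class I and class I-like genes, 2 were higher in BPH heart and 4 were lower in BPL heart, with list medians of -0.04 in both (3.51% higher and 5.2% lower over all probe sets). BPL had 2 higher and 1 lower in liver, and 1 higher and 2 lower in both aorta and kidney. BPH had 1 higher in aorta and 1 lower in kidney, and by limma 0 called in liver (3 at an unadjusted p below 0.05). The 2 in BPH heart were H2-Ke6, a steroid dehydrogenase gene of the region that is not a class I chain (0.35 ± 0.06, adjusted p = 0.000442), and Mr1, which presents vitamin metabolites (0.32 ± 0.08, adjusted p = 0.0252). H2-Bl was higher in BPL than in BPN in aorta (0.92 ± 0.17, adjusted p = 0.000306) and kidney (0.66 ± 0.08, 4.34e-05) besides liver. H2-M3, which presents formylated peptides, was lower in BPL aorta (-0.69 ± 0.09, 6.77e-06) and heart (-0.48 ± 0.09, 0.00237). Fcgrt, the heavy chain of the neonatal Fc receptor that also pairs with B2m, was lower in kidney of BPH (-0.87 ± 0.06, 1.66e-08) and BPL (-0.51 ± 0.06, 2.19e-05). Hfe, another partner of B2m with a role in iron uptake, was lower in BPL heart (-0.92 ± 0.06, 1.06e-08).

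Among 15 regulators of class I and of the interferon gamma pathway, 3 were lower and none higher in heart in each strain against BPN, with medians of -0.03 and -0.06. Over all probe sets 3.51% were lower in BPH heart and 5.2% in BPL heart. Nlrc5, the class I transactivator, read 4.62, 4.89, 5.04, 4.78 and 3.89 in BPN hearts, 4.14, 3.61, 4.01, 4.11 and 4.27 in BPH hearts, and 3.95, 3.90, 3.73, 4.14 and 3.96 in BPL hearts. All but BPN array 5 lay above the other strains. Nlrc5 was lower in BPH and BPL heart (-0.62 ± 0.17, adjusted p = 0.0317, and -0.71 ± 0.17, 0.0108), BPH aorta (-0.62 ± 0.17, 0.0225) and BPH kidney (-0.44 ± 0.12, 0.0432), and in liver it was not called. Irf1, an interferon-induced activator of class I genes, was lower in BPL heart (-0.25 ± 0.06, 0.0136) and in BPH and BPL kidney (-0.28 ± 0.07, 0.0125, and -0.27 ± 0.07, 0.0242).

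Of 16 interferon response genes, 5 were lower in BPH heart, 4 in BPL heart, 6 in BPH kidney and 5 in BPL kidney, with 1 higher in BPH kidney. Over all probe sets 3.51%, 5.2%, 3.39% and 3.02% were lower in these comparisons. In liver 3 were lower in BPH, and 2 lower and 2 higher in BPL, with medians of -0.08 and 0.03. In aorta 3 were lower in BPH, and 4 lower and 2 higher in BPL, with medians of -0.29 and -0.06. Medians were -0.24 and 0.02 in heart and -0.22 and -0.16 in kidney, so in BPL heart the median and the called genes differ in sign. Igtp was lower in BPH and BPL in heart (-1.32 ± 0.31, adjusted p = 0.0109, and -1.54 ± 0.31, 0.00289), kidney (-0.61 ± 0.14, 0.00989, and -1.16 ± 0.15, 5.56e-05) and liver (-0.72 ± 0.08, 3.59e-06, and -0.31 ± 0.08, 0.0163). The heart values include BPN arrays 2 and 3, which had the highest Igtp. Gbp2, an interferon-induced guanylate-binding protein, was lower in BPH and BPL hearts (-0.71 ± 0.10, 0.000175, and -1.22 ± 0.10, 2.76e-07).

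MHC class II genes and markers of macrophages, which carry both classes, were mostly lower than in BPN in heart and liver of both strains. In BPL kidney and in aorta they did not move together. Of 10 class II genes and partners, BPH and BPL had 6 each lower in heart and in liver, and 7 and 3 in kidney, with none higher in those tissues. Over all probe sets 3.51% and 5.2% were lower in heart, 3.85% and 3.7% in liver, and 3.39% and 3.02% in kidney. The list medians against BPN ran from -0.35 (BPL kidney) to -1.23 (BPL heart) in these tissues. Aorta had 6 lower in BPH (median -1.36), and 5 lower and 2 higher in BPL (median -0.92). H2-Ab1 was lower by -1.53 ± 0.19 in BPH heart and -2.0 ± 0.19 in BPL heart (adjusted p = 2.43e-05 and 8.73e-07). These values include BPN heart arrays 2 and 3, the highest for H2-Ab1. Of 7 macrophage markers, all measured above the lowest 25% of intensities, BPH hearts had 5 lower and BPL hearts 7, the kidneys 4 and 0 and the livers 6 and 6, the medians being -0.59 and -0.50 (heart), -0.51 and -0.05 (kidney), and -0.52 and -0.39 (liver). By limma 0 were called in aorta (4 for BPH and 1 for BPL at an unadjusted p below 0.05), as in BPL kidney (2 at that p). Their summed level ran from 10.87 to 11.07 in BPH, 11.24 to 11.82 in BPN and 10.87 to 10.94 in BPL heart, and from 9.11 to 9.38, 9.45 to 9.86 and 9.49 to 9.92 in kidney. In liver it ran from 9.61 to 9.97 in BPH, 10.24 to 10.48 in BPN and 9.91 to 10.02 in BPL. Of the members, Psmb8, Psmb9 and Tap2 were lower in liver of both strains and Tap1 and Tapbp in BPH liver, while B2m and H2-D1 were not called there.

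T cell markers, 4 measured, were also summed in heart, where their level ran from 6.95 to 9.60 in BPH (median 7.11), 7.12 to 7.40 in BPN (median 7.25) and 6.90 to 7.12 in BPL (median 7.08). Every BPL heart lay below every BPN heart, by a narrow margin, and BPH array 5 alone gave the top of the BPH range. By limma 0 of the 4 were called against BPN in either strain (0 at an unadjusted p below 0.05). Without BPH array 5, a setting added after seeing the data, the BPH range ended at 7.16, and 0 were called for BPH and 1 was lower for BPL (2 in each at an unadjusted p below 0.05). In kidney 2 were lower in BPH and in aorta 3 (3.39% and 4.7% lower over all probe sets). The part of cell type composition in the class I differences was not tested.

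Patterns most like each member were sought by Pearson correlation over the 67 arrays after each tissue was centred, among 19137 other named genes, as a description only, since arrays of a strain share their genotype. B2m was most like Igtp (r = 0.76, Spearman rho 0.61), Tap1 most like Irgm1 (r = 0.67, rho 0.60), and Psmb8 and Psmb9 most like H2-Ab1 (r = 0.84 and 0.82, rho 0.80 and 0.75). H2-D1 was most like L3hypdh (r = 0.76), H2-K1 like Ccdc93 (r = 0.70), H2-Q7 like Gm830 (r = 0.76), Tap2 like Nudc (r = 0.78) and Tapbp like Copb1 (r = 0.77). H2-Q10 was most like A530053G22Rik (r = 0.96, rho 0.86), Guca1b (r = 0.93, rho 0.80) and C130046K22Rik (r = 0.92, rho 0.85). Next for H2-D1 came the cytokine Il15 (r = 0.72) and the interferon-induced Gbp7 (r = 0.71).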

How the data were processed

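RNA of 67 tissue samples was measured on single-colour custom Affymetrix arrays, 1 intensity per probe set and array. Per the submitters' processing notes, the authors normalised the deposited intensities with RMA, which corrects background, equalises array distributions and summarises probes. These deposited values are on a linear intensity scale, so log2 values were computed here, with a pseudocount of 0. Per the labels' protocols, aorta RNA was amplified by another kit and labelled as cDNA and the other tissues as cRNA, so levels are compared within a tissue. The number of arrays, 4 to 9 per group, limits the precision. Array medians of log2 intensity ran from 4.66 to 4.73 in aorta and from 4.62 to 4.72 in heart. The array's genome build was not given in the sources used here. Promoter sequences are RefSeq's, build GRCm38.p6.

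For each tissue, 1 limma model (version 3.58.1, R 4.3.3, lmFit and eBayes) held a mean per strain, with Benjamini-Hochberg adjustment over all 38385 probe sets. Interactions came from a joint fit of heart, kidney and liver. The code was tested on simulated data. The members and lists were chosen with earlier results of these data known. All 12 member probe sets are described. Values by array are given for the highest-mean probe set of each gene, and for another one where it was called with the opposite sign or differed by over 1 log2 unit. At most 4 genes per list and tissue, those of smallest adjusted p, and the 3 most similar genes are named. Psmb5 and Alb were named for their role, after values were seen. Where a mean lay in the lowest 25% of a tissue's intensities, no fold is given. Replicate numbers did not pair the strains. Alternatives were other scalings, pseudocounts, filters, variance models, array weights, the joint fit, a replicate block and leaving out arrays.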

Additional observations from a re-analysis of the deposited data

Results flagged for a closer look

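Of 144 groups of member arrays, 12 held an array whose gap to its nearest neighbour exceeded Dixon's 95% critical value, and chance flags about 5% of groups. In aorta these were H2-K1 (NM_001001892) at 10.88 and Psmb9 at 8.72 in BPH array 10, both high, and H2-D1 at 8.72 in BPH array 2, low. In heart they were H2-D1 at 7.01 in BPH array 1 and at 6.69 in BPL array 1, and H2-Q10 at 5.52 in BPN array 1, all high. In kidney they were Tapbp (BC052870) at 7.91 in BPH array 3 and H2-D1 at 7.26 in BPL array 5, both low, and H2-K1 (NM_001001892) at 10.25 in BPN array 2, high. In liver they were H2-K1 (NM_001001892) at 10.56 in BPH array 5, high, and H2-Q10 at 11.62 in BPN array 5 and Tap2 at 6.07 in BPL array 3, both low.

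The strain difference itself differed between tissues, by the limma interaction, in 16 of 60 tests (first tissue minus second). Over all probe sets 4.36% to 7.42% were called, depending on the comparison. For BPH against BPN these were H2-K1 between heart and kidney (-0.59), B2m (-0.71), H2-K1 (-0.92) and H2-D1 (-0.99) between heart and liver, and B2m between kidney and liver (-0.61). For BPL against BPN they were H2-K1 (-0.67) and H2-D1 (-0.66) between heart and kidney. Between heart and liver they were B2m (-1.01), H2-K1 (-1.95), H2-D1 (-1.37), H2-Q7 (-0.69) and Tap1 (-0.64). Between kidney and liver they were B2m (-0.68), H2-K1 (-1.28), H2-D1 (-0.71) and H2-Q7 (-0.50).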

How the results depend on the processing

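No member difference changed sign past the threshold under any alternative run. For BPH against BPL in heart, 1 probe set was called, against 2 with a pseudocount of 16, without dim probe sets, with quantile normalization, with an intensity-dependent prior variance, with probe sets of 1 gene symbol only, with only the 2 strains compared and in the joint fit of all 12 groups, 0 with median centring and 0 with the replicate block. Leaving out BPN heart arrays 2 and 3, an alternative added after seeing the data, gave 3 there and 4 for BPH against BPN. The intensity-dependent prior gave 4 for kidney BPH against BPL. The joint fit gave 5 for aorta BPH against BPN and 3 for liver BPH against BPL. Interaction counts for heart and kidney fell to 1 with quantile normalization (BPL against BPN) and to 0 with median centring (BPH against BPN).

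Leaving out each array in turn gave 3 to 4, 3 to 4 and 5 to 7 called probe sets in aorta (BPH against BPN, BPL against BPN, BPH against BPL), 6 to 10, 7 to 9 and 0 to 3 in heart, 7 to 8, 4 to 6 and 1 to 3 in kidney, and 4 to 7, 6 to 7 and 4 to 6 in liver. For heart BPH against BPN the 6 came without BPH array 2, BPN array 2 or BPN array 3. The interaction counts ran from 0 to 2, 3 to 3 and 1 to 1 for BPH (heart and kidney, heart and liver, kidney and liver) and 0 to 4, 5 to 6 and 2 to 4 for BPL. Over all probe sets the joint fit called 7152, 7431 and 7890 in aorta, against 3513, 3971 and 4231, and 1530, 1741 and 1832 in heart, against 2695, 3586 and 3288. Without BPN heart arrays 2 and 3, 1744 and 2254 were called against BPN. The cause was not tested, apart from the shared spread and the fewer samples that these fits have by construction.

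Same-numbered arrays of different strains did not deviate together. Their correlation was over 0.1 in 4 of 15 pairs in heart, 1 of 13 in kidney and 3 of 15 in liver, so the numbers were not taken as pairs, and the replicate block changed 5 single calls, 4 of them lost. Aorta strains share at most 1 replicate number, so no block was fitted there. Tap2 in liver was also lost for BPH against BPN with quantile normalization (adjusted p = 0.067), only these strains in the fit (0.0866) and the replicate block (0.0686), and for BPH against BPL with median centring (0.0642) and the block (0.0839). No detection calls were used here, so low intensities may be background.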
